A study of Rattus norvegicus with 14 samples.

Results

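The genes described here are Scx, Prelp, Aebp1, Dcn, Lum, Fmod, Bgn, Sparc, Fbln5 and Postn, which encode scleraxis, small matrix proteoglycans and other proteins of mesenchymal matrix. These 10 genes of the 16816 in the count table were chosen by name from an earlier look at these same libraries, so their values are given as a description and the whole-table fit is used for them as a label, not as a test. All 10 had a row in the table, 7 had reads in at least 1 library, and 3 had none in any library. Of all 16816 rows, 3447 had no read in any library. Gene expression was measured by RNA-seq in PCCL3 cells, a rat thyroid follicular cell line, in 4 groups of 3 libraries. PPFP cells had been transfected with a Myc-tagged form of the PAX8-PPARG fusion protein (PPFP), the oncoprotein of a subset of thyroid carcinomas, and EV cells with an empty vector. Each line received either 1 uM pioglitazone, a PPARG agonist, or its DMSO vehicle for 16 hours before harvest. All groups grew in the same medium with serum, thyrotropin, insulin, transferrin and hydrocortisone, and each line is 1 stable transfectant line, so what belongs to PPFP and what belongs to the line cannot be told apart. These are bulk samples, in which fewer cells of a type and less RNA per cell cannot be told apart.

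Small leucine-rich proteoglycans such as decorin (Dcn), lumican (Lum), fibromodulin (Fmod), biglycan (Bgn) and PRELP are secreted proteins that bind collagen and govern how its fibrils assemble, and several carry glycosaminoglycan chains. Scleraxis (Scx) is a basic helix-loop-helix (bHLH) transcription factor best known for directing tendon cells, where it pairs with E proteins and binds the short DNA motif called the E-box. These genes are known mainly from fibroblasts, tendon and cartilage, whereas the follicular cells of the thyroid are epithelial.

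Library totals ran from 23724703 to 35240176 counts, and the 10 most abundant genes took 4.81% to 5.96% of a library. The Pparg row held 1.23 to 2.81 CPM (read counts scaled to the library's adjusted total) in the 6 EV libraries and 46.7 to 61.2 CPM in the 6 PPFP libraries, with no overlap between the lines. The row of the other fusion partner, Pax8, held 681 to 796 CPM in EV and 540 to 705 CPM in PPFP libraries. The fusion construct is human, and whether its reads fell on these rat rows was not tested. The 10 thyroid follicular markers were all detected in every group, with summed levels of 10400 to 14600 CPM. Of 10 fibroblast markers, 6 stayed at 3 counts or fewer in every library, among them Col3a1, Tcf21 and Dpt, which had no read in any, and the summed level of the list was 20.4 to 34.6 CPM over all groups. Most of that sum was 1 gene, Pdgfra, with group means of 21.2 to 29.4 CPM. Replicates 2 and 3 of PPFP cells with pioglitazone lay far closer together than any other pair of replicates, with a chi-square of 1.7 per degree of freedom against 17.8 to 113 elsewhere, and member values without either of them are given below where they change a call. Whether these 2 libraries share a culture or RNA was not tested. If they do, n is 2 for that group and its SDs and standard errors are too small.

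RefSeq promoter entries (build GRCr8) matched 6 of the 10 genes, Aebp1, Lum, Fmod, Sparc, Fbln5 and Postn. The 250 bases before the annotated start are shown for the 4 of these that had reads, since 3 of them were much lower in PPFP cells and Sparc was higher. The intervals are chr6:126742707-126742956 on the minus strand for Fbln5, chr13:48045317-48045566 on the plus strand for Fmod, chr14:84952604-84952853 on the plus strand for Aebp1 and chr10:40038817-40039066 on the minus strand for Sparc. Capitals mark each E-box (CANNTG, searched on both strands, which read alike).
Fbln5: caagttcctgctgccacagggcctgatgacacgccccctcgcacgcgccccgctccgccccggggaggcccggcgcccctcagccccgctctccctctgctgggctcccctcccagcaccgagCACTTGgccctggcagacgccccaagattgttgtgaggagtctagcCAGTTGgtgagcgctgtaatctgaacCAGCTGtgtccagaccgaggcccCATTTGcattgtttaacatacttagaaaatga
Fmod: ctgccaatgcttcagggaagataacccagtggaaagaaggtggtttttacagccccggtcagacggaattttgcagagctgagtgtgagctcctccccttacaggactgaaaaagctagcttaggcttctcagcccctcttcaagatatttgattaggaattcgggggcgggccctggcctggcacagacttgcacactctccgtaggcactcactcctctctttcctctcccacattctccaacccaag
Aebp1: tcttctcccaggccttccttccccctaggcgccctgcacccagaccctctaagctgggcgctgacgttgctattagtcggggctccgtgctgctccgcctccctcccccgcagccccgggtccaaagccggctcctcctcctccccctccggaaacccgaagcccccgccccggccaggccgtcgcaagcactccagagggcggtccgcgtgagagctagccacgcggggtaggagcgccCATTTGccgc
Sparc: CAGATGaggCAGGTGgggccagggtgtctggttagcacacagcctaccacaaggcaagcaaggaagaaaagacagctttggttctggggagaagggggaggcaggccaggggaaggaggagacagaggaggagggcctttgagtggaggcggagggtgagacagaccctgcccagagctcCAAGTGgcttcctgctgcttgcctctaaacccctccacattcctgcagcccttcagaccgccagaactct
Fbln5 held 4 E-boxes, Sparc 3, Aebp1 1 and Fmod none in this window. The motif is common, since 65.5% of all 33469 promoter windows of this length held at least 1 and 11.5% held 3 or more. The half-site AGGTCA of PPARG was found on neither strand of these 4 windows, as was true of all but 14.1% of the windows. A match here is a description of letters, and its absence says only that these letters are not in this window.

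Expression of PPFP went with a lower level of Scx, which was lower again once PPFP cells were given pioglitazone. Its level was 73.3, 62.6 and 72.9 CPM in the EV libraries without pioglitazone and 36.4, 34.1 and 37 CPM in the PPFP libraries without it. With pioglitazone it was 68.9, 51.1 and 66.4 CPM in EV cells but 9.6, 9.96 and 9.34 CPM in PPFP cells. The PPFP libraries of either treatment thus lay below every EV library, and the 2 PPFP groups did not overlap each other. Such separation, here and for the genes below, was common. Of all genes tested, 30.3% lay wholly lower in PPFP than in EV cells without pioglitazone and 33.2% with it. Within PPFP cells 17.2% lay wholly lower with the drug. The group means were 69.6 ± 6.06, 62.1 ± 9.66, 35.8 ± 1.53 and 9.63 ± 0.311 CPM (SD, n = 3) for EV cells without and with pioglitazone and PPFP cells without and with it.

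The log2 fold change of Scx was -0.94 (SE 0.09) for PPFP against EV cells without pioglitazone, a 1.91-fold lower level that fell short of the 2-fold threshold although its adjusted p was under 0.05 (values with such a p are said to pass). It exceeded 2-fold with library size alone as the scaling (-1.02) and, narrowly, without replicate 2 of EV cells without pioglitazone (-1). With pioglitazone the change was -2.66 (SE 0.13), or 6.32-fold lower. Within PPFP cells pioglitazone lowered Scx 3.71-fold (log2 fold change -1.89, SE 0.07), and the level with the drug was 0.264, 0.292 and 0.253 of that without it in replicates 1, 2 and 3. In EV cells the same ratios were 0.94, 0.816 and 0.912, and the groups overlapped (log2 fold change -0.17, SE 0.13).

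Counting of Scx carries a limit of position. In the GRCr8 annotation Scx lies inside the span of Bop1, which encodes a ribosome biogenesis factor, and the libraries were made with a kit that does not mark strand, so reads of the 2 genes cannot be told apart where they overlap. Bop1 was higher in PPFP cells, at 203 ± 35.4 against 122 ± 15.1 CPM (SD, n = 3) without pioglitazone and 211 ± 31.3 against 125 ± 15.3 CPM with it (edgeR quasi-likelihood test, adjusted p = 0.0032 and 0.0018). Between PPFP cells with and without pioglitazone, where Scx was at its lowest level, Bop1 had a log2 fold change of 0.06 (SE 0.14) that did not pass. Hsf1, the next gene on the other side and the master factor of the heat shock response, was also higher in PPFP cells (log2 fold change 0.73 without and 0.77 with pioglitazone). The share of Scx reads that comes from Bop1 transcripts was not tested.

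**Figure D1:**
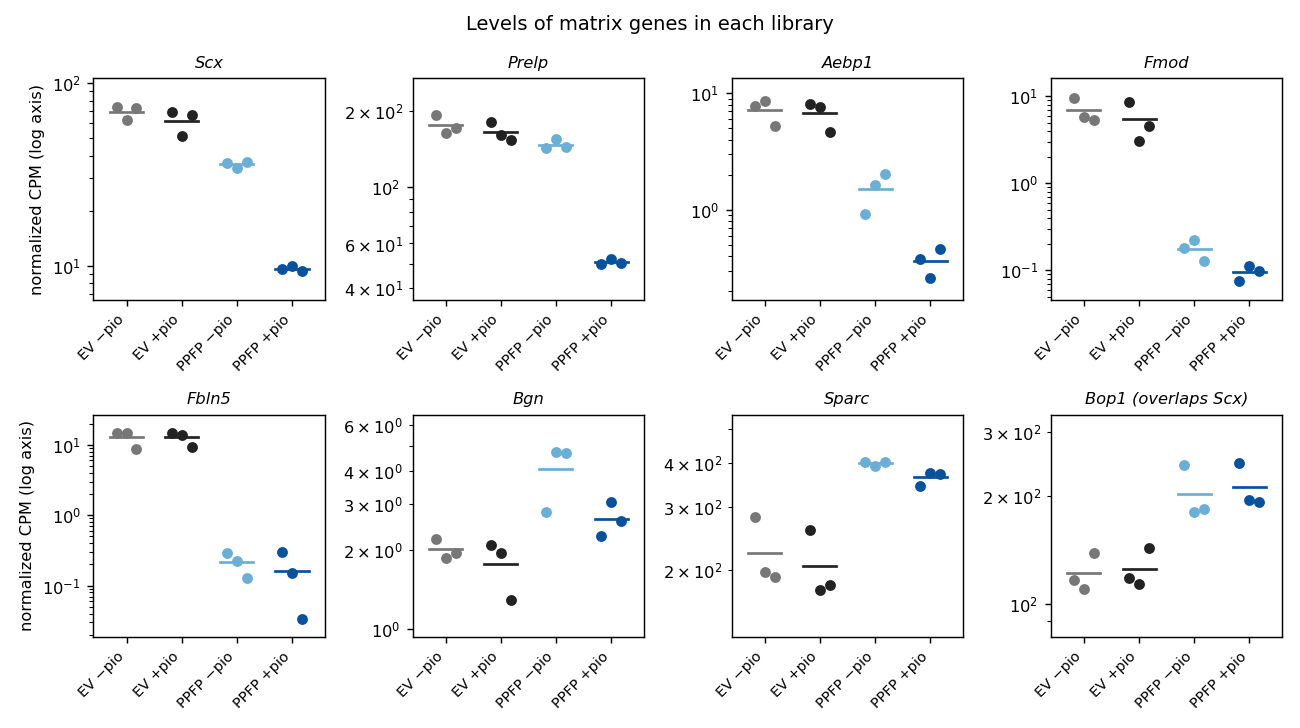
Normalized CPM (log axis, a separate scale in each panel) of the 7 detected genes and of Bop1 in each library; points are libraries, bars are group means (n = 3), EV cells are grey and black and PPFP cells light and dark blue, without and with pioglitazone (pio). Scx and Prelp reach their lowest level in PPFP cells with pioglitazone, Fmod and Fbln5 lie low in both PPFP groups, and Bgn and Sparc lie higher in PPFP cells.

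Prelp, which encodes a leucine-rich matrix protein that links basement membranes to connective tissue, was at its lowest in PPFP cells with pioglitazone. It was 193, 163 and 171 CPM in the EV libraries and 143, 155 and 144 CPM in the PPFP libraries without the drug. With pioglitazone it was 181, 160 and 154 CPM in the EV libraries and 49.9, 52.1 and 50.3 CPM in the PPFP libraries. PPFP cells with pioglitazone were therefore far below all other groups, while without the drug the 2 lines were separated by a narrow gap.

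Without pioglitazone the log2 fold change of Prelp was -0.24 (SE 0.09), 1.18-fold lower, and it did not pass in the whole-table fit. It did pass when library size alone was used for scaling (-0.32) or when all 12 libraries were fitted together (-0.24). With pioglitazone Prelp was 3.19-fold lower in PPFP than in EV cells (log2 fold change -1.67, SE 0.09). Within PPFP cells the drug lowered it 2.89-fold (log2 fold change -1.53, SE 0.06), to 0.349, 0.337 and 0.35 of the untreated level in the 3 replicates. In EV cells the ratios were 0.938, 0.979 and 0.901.

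Fmod, which encodes fibromodulin, was nearly lost in PPFP cells. The EV libraries held 289, 174 and 155 counts without pioglitazone and 320, 96 and 128 counts with it, whereas the PPFP libraries held 5, 6 and 3 counts and 2, 3 and 3 counts. No PPFP library came near any EV library. From the summed counts, Fmod was 38.7-fold higher in EV than in PPFP cells without pioglitazone (95% exact binomial interval 22.9 to 71.2) and 59-fold higher with it (29.7 to 137), intervals that, like all exact intervals given here, cover counting error only and not the spread between libraries. The fitted log2 fold changes were -5.22 (SE 0.39) and -5.75 (SE 0.58). EV cells themselves varied, with means of 6.94 ± 2.39 CPM without and 5.43 ± 2.88 CPM (SD, n = 3) with pioglitazone, and replicate 1 was the highest in both.

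With 14 counts in all 3 PPFP libraries without pioglitazone and 8 in the 3 with it, Fmod did not reach the filter on low counts for the comparison of PPFP cells with and without the drug. The ratio of these sums was 1.87 (95% exact interval 0.733 to 5.15), so a further change with pioglitazone was not detectable at this depth.

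Bgn, which encodes biglycan, went the other way. It was 2.21, 1.87 and 1.95 CPM in the EV libraries and 2.79, 4.73 and 4.69 CPM in the PPFP libraries without pioglitazone. With the drug it was 2.08, 1.95 and 1.29 CPM in the EV libraries and 2.27, 3.06 and 2.58 CPM in the PPFP libraries. All PPFP libraries lay above all EV libraries of the same treatment, and the gap was smallest at replicate 1 of the PPFP groups. The log2 fold change was 1.03 (SE 0.25), or 2.05-fold higher, without pioglitazone, just above the threshold of a call. The call was lost with library size alone as the scaling (0.96) and, among the groups without pioglitazone, without replicate 2 (0.99) or 3 (1, just under 2-fold) of EV cells or replicate 2 (0.92) or 3 (0.93) of PPFP cells. With pioglitazone it was 0.59 (SE 0.24) and did not pass.

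Within PPFP cells Bgn had a log2 fold change of -0.62 (SE 0.25) with pioglitazone, which did not pass in the fit without the replicate number but did with it as a block (-0.62) and when replicate 1 of PPFP cells without pioglitazone was left out (-0.85). Dcn and Lum, for decorin and lumican, had no read in any of the 12 libraries. A count of 3, the limit that a count of 0 allows, corresponds to 0.081 to 0.127 CPM in a single library and to 0.00866 CPM over all 12. Both lie next to each other in GRCr8, with Kera, another proteoglycan gene, beside Lum.

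Aebp1 encodes a secreted carboxypeptidase-like protein of the collagenous matrix that is also studied as a regulator of adipocyte genes. It held 234, 259 and 154 counts in EV cells and 25, 44 and 48 counts in PPFP cells without pioglitazone. With pioglitazone the counts were 303, 239 and 131 in EV cells and 10, 7 and 14 in PPFP cells. The means fell in steps, from 7.26 ± 1.77 and 6.84 ± 1.87 CPM in the EV groups to 1.52 ± 0.562 and 0.368 ± 0.102 CPM (SD, n = 3) in the PPFP groups, and neither PPFP group overlapped an EV group or the other PPFP group.

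The log2 fold change of Aebp1 between the lines was -2.24 (SE 0.32), or 4.72-fold lower, without pioglitazone and -4.17 (SE 0.33), or 18-fold lower, with it. Within PPFP cells pioglitazone gave -2.02 (SE 0.39), a 4.05-fold lower level. That call was lost when replicate 2 or 3 of PPFP cells without pioglitazone (-1.98 and -1.76) or replicate 2 or 3 of those with it (-1.84 and -2.25) was left out. The level with the drug was 0.412, 0.161 and 0.229 of that without it in the 3 replicates, against 1.04, 0.882 and 0.891 in EV cells.

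**Figure D2:**
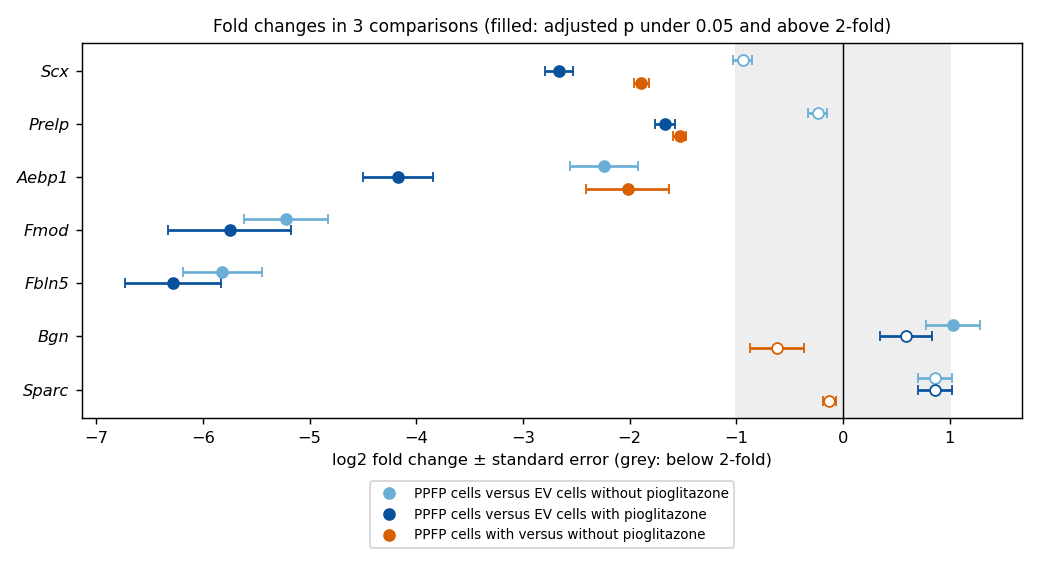
Log2 fold changes (x axis, with standard errors as bars) of the 7 detected genes in 3 comparisons; filled points had an adjusted p under 0.05 and a change above 2-fold, and the grey band is below 2-fold. Fbln5 and Fmod lie beyond -5 in both comparisons between the lines, and Prelp is near 0 (-0.24) without pioglitazone and at -1.67 with it.

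Fbln5 encodes fibulin 5, which helps tether elastin and its cross-linking enzymes to microfibrils. Its counts were 438, 440 and 253 in EV cells and 8, 6 and 3 in PPFP cells without pioglitazone, and 553, 434 and 258 against 8, 4 and 1 with it. The EV groups had the same mean, 12.7 ± 3.48 and 12.7 ± 3.02 CPM (SD, n = 3), with replicate 3 the lowest in each. The PPFP groups were at 0.214 ± 0.0837 and 0.162 ± 0.135 CPM, far below every EV library.

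From the summed counts Fbln5 was 58.3-fold higher in EV than in PPFP cells without pioglitazone (95% exact interval 36.3 to 101) and 83.1-fold higher with it (48.4 to 157). The fitted log2 fold changes were -5.82 (SE 0.37) and -6.28 (SE 0.45). As for Fmod, the gene was too low for the comparison within PPFP cells, where the ratio of sums without over with the drug was 1.4 (0.64 to 3.13). Tc2n, the gene next to Fbln5 in GRCr8, was also far lower in PPFP cells. It had 307 counts in EV and none in PPFP cells without pioglitazone, at least 27.2-fold lower with 3 counts per library as the limit, and 357 against 1 with it (310-fold, 95% exact interval 55.2 to 12300). Trip11, on the other side, had log2 fold changes of 0.15 and 0.13 that did not pass.

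Sparc encodes osteonectin, a collagen-binding matricellular protein. Its level was 281, 197 and 191 CPM in the EV libraries and 402, 393 and 403 CPM in the PPFP libraries without pioglitazone. With the drug it was 259, 175 and 181 CPM in the EV libraries and 345, 376 and 372 CPM in the PPFP libraries. Every PPFP library exceeded every EV library, and replicate 1 was the highest of both EV groups.

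The log2 fold change of Sparc was 0.86 (SE 0.16) in both comparisons between the lines, 1.82-fold and 1.81-fold higher, so that it had an adjusted p under 0.05 but not the 2-fold change of a call. It exceeded 2-fold when replicate 1 of the EV group was left out (1.07 without and 1.05 with pioglitazone). Within PPFP cells it was -0.13 (SE 0.06), which passed only with the replicate number as a block. Postn, the gene of periostin, a matricellular protein of fibroblasts and periosteum, had no read in any library, with the same limits as Dcn and Lum.

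Counted together, 7 of the 10 genes passed the filter on low counts in the comparisons between the lines and 5 in the comparison within PPFP cells. Genes that pass only because 1 group is high had to differ, and these contrasts were among the values that chose the genes, so nothing is read from the counts. Without pioglitazone 4 were lower and 2 higher with an adjusted p under 0.05, where 23.1% and 22% of all 10264 genes tested were. Of these, 3 lower and 1 higher also exceeded 2-fold, against 7.31% and 7.27% of all genes. The median log2 fold change was -0.94 over the 7 genes and 0.00164 over all genes.

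With pioglitazone 5 were lower and 1 was higher with an adjusted p under 0.05, beside 26.4% and 26.3% of 10291 genes, and 5 lower and none higher exceeded 2-fold, beside 10.4% and 9.3%. The median was -2.66, against 0.0121 over all genes. The comparison of PPFP cells with and without pioglitazone called Scx, Prelp and Aebp1 lower, 3 of 5, beside 1.31% of 10064 genes (7.13% lower and 7.63% higher by adjusted p alone), with a median of -1.53 against 0.012.

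In EV cells with against without pioglitazone none of the 7, and 0% of the 10146 genes tested, had an adjusted p under 0.05 by edgeR's quasi-likelihood test. The median over the 7 was -0.12. Only 16 genes had an unadjusted p under 0.05, fewer than chance alone gives at that p. This fit did not pair same-numbered EV libraries, so it was conservative and can miss small changes. Also 0 genes were called (adjusted p under 0.05 and above 2-fold) by edgeR's exact test, by DESeq2 or with the replicate number as a block. Changes below 2-fold were not counted over all genes in those fits. The difference between the responses of the 2 lines, fitted on all 12 libraries, was -1.74 (SE 0.15) on the log2 scale for Scx and -1.45 (SE 0.13) for Prelp, the 2 of 7 genes that passed with a lower response in PPFP cells, beside 1.26% of 10482 genes lower and 1.38% higher.

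Aebp1 had a similar difference with a wider error, -1.95 (SE 0.52), that did not pass. It did pass with the replicate number as a block within each line (-1.96), with DESeq2 (-1.95), and without replicate 3 of EV cells with pioglitazone (-2.16) or replicate 1 of PPFP cells without it (-2.21). For Fmod, Fbln5, Bgn and Sparc the differences were -0.53 (SE 0.91), -0.47 (SE 0.78), -0.46 (SE 0.35) and -0.02 (SE 0.24), and none of these passed.

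**Figure D3:**
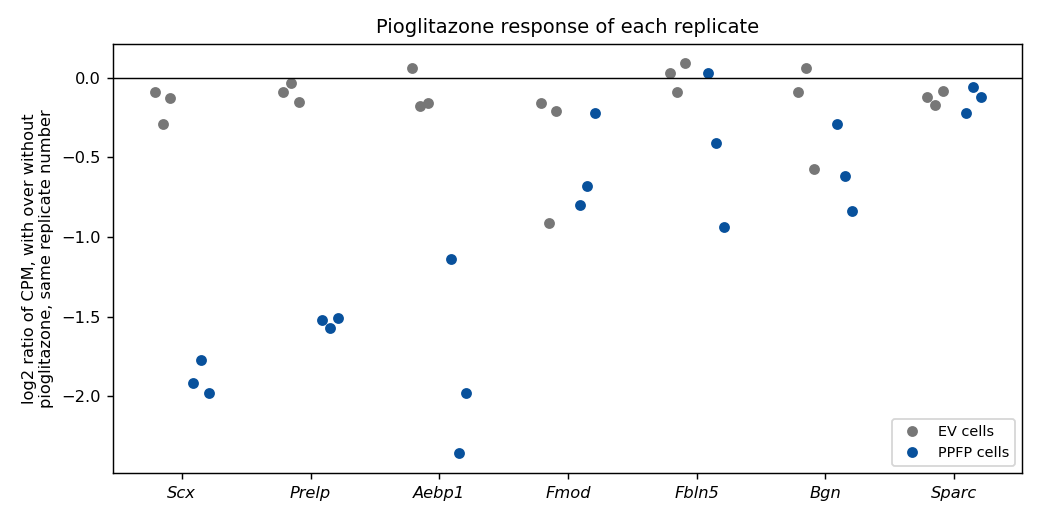
Log2 ratio of CPM with over without pioglitazone within each replicate number (y axis), for EV cells (grey) and PPFP cells (blue), 3 points each. For Scx, Prelp and Aebp1 all PPFP points lie below all EV points, between -1.14 and -2.36, while for Sparc the 2 lines overlap; the PPFP points of Fmod and Fbln5 rest on 1 to 8 counts a library.

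Over the 12 libraries, the root mean square difference of centred log2 CPM between Fmod and Fbln5 was 0.72, between Scx and Prelp 0.45 and between Bgn and Sparc 0.3. Between other members that were lower in PPFP cells it was 0.77 for Scx and Aebp1, 1.11 for Aebp1 and Fmod, 1.12 for Prelp and Aebp1, 1.53 for Aebp1 and Fbln5, 1.63 for Scx and Fmod, 2.01 for Prelp and Fmod, 2.09 for Scx and Fbln5 and 2.45 for Prelp and Fbln5. Of 9638 genes with a mean of at least 1 CPM, those most like Scx were Arhgef19 (0.13), Slc20a1, for a sodium-phosphate cotransporter (0.23), and Mycl1, for a Myc family factor (0.25). Arhgef19 had means of 17.7, 17.1, 8.32 and 2.38 CPM in EV cells without and with pioglitazone and PPFP cells without and with it.

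Nearest to Prelp were Map1a (0.15), Fam167a (0.18) and Dclk1 (0.18), of which Map1a and Dclk1 encode microtubule-associated proteins. Dclk1 was 86, 83.8 and 83.2 CPM in the first 3 groups and 26.4 CPM in PPFP cells with pioglitazone. Aebp1 was nearest to Tmem151b (0.26), RGD1565512 (0.27) and Fam151a (0.33). Fmod was nearest to Chrdl1 (0.4), for a BMP antagonist, Dzip1l (0.42) and Them5 (0.43), and Fbln5 to Dpep1 (0.39), Mageh1 (0.45) and Nptx1 (0.46).

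Chrdl1 and Mageh1 had no read in the PPFP libraries, against means of 2.95 and 3.75 CPM in EV cells without pioglitazone. Bgn was nearest to Akap6 (0.2), Cyp4f17 (0.2) and LOC500331 (0.21). Sparc was nearest to Ehd2 (0.14), to Ucp2, for a mitochondrial carrier (0.15), and to Ccdc80, for another secreted matrix protein (0.15), which had means of 5.71, 5.35, 11.3 and 9.46 CPM in the 4 groups. Likeness here is over 12 libraries that share the 4 groups, and with so few groups many genes come close.

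Related gene lists were read by the same fits, and lower or higher below means an adjusted p under 0.05, which 23.1% and 22% of all genes had without pioglitazone and 26.4% and 26.3% with it. The lists were chosen with earlier results of these data known, so the p-values of their genes are labels, not tests. Genes that pass the filter only because 1 group is high, such as Cpxm2, Wisp1, Fbln1 and Sparcl1, had to differ. Of 12 other small leucine-rich proteoglycans, 9 were in the table, 3 of these had no read and 4 were tested. Without pioglitazone 3 were higher and none lower (median log2 fold change 1.09), and with it 2 were higher and 1 lower (median 1.08). Tsku, for tsukushi, a secreted modulator of several signalling pathways, was 47.7 ± 8.09 CPM in PPFP and 21.2 ± 1.23 CPM in EV cells (SD, n = 3; edgeR quasi-likelihood adjusted p = 0.00049), and 92.3 ± 21.8 against 22.4 ± 3.58 CPM with pioglitazone (adjusted p = 0.00021). Chad, for the cartilage protein chondroadherin, had log2 fold changes of 2 (adjusted p = 0.015) and 1.79 (adjusted p = 0.0048) from 6 to 45 counts a library.

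Optc, for opticin, lies beside Prelp in GRCr8, with Fmod on the far side of Prelp. Its log2 fold change was -0.39 (SE 0.34, adjusted p = 0.39 by edgeR) without pioglitazone and -2.12 (SE 0.27, adjusted p = 0.00052) with it, and -1.71 (SE 0.37, adjusted p = 0.027) within PPFP cells. With pioglitazone its level was low, 2.55 ± 0.451 CPM in the EV libraries and 0.571 ± 0.135 CPM in the PPFP libraries (SD, n = 3). The neighbours of Aebp1 were lower too, Polm, for a DNA polymerase, at -2.39 without and -3.02 with pioglitazone (adjusted p = 0.00015 in both) and Pold2, for a subunit of DNA polymerase delta, at -0.98 (adjusted p = 0.0021) and -0.9 (adjusted p = 0.0029). Of the neighbours of Bgn, Atp2b3, for a plasma membrane calcium pump, was higher, at 2.73 (adjusted p = 0.0026) and 4.35 (adjusted p = 0.00064), and Haus7 at 0.49 and 0.56 (adjusted p = 0.016 in both). Other neighbours moved against their member. Btg2, beside Fmod, had 0.78 without pioglitazone (adjusted p = 0.013) and 0.56 with it (adjusted p = 0.057), and Fat2, beside Sparc, had -2.93 with pioglitazone (adjusted p = 0.011) and was not tested without it. Atox1, on the other side of Sparc, had 0.26 (adjusted p = 0.079) and 0.36 (adjusted p = 0.025), Btg1, beside Dcn, had 0.31 (adjusted p = 0.12) and 0.66 (adjusted p = 0.031), and Trpc4, beside Postn, was not tested.

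Elastic fibres, in which fibulin 5 takes part, are built from elastin and microfibril proteins. Of 21 such genes listed, 11 were tested without pioglitazone, with 7 lower and 2 higher (median log2 fold change -0.62), and 12 with it, with 7 lower and 3 higher (median -1.38, unchanged with elastin at its bound). Eln, the elastin gene, had 203 counts in the 3 EV libraries and 2 in the 3 PPFP libraries without pioglitazone, an 89-fold ratio (95% exact interval 24.3 to 740). With pioglitazone it had 169 counts in EV cells and none in PPFP cells, and was at least 14.9-fold lower when 3 counts per library are taken as the limit.

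Ltbp2, for a latent TGF-beta binding protein, was 2.1 ± 0.585 CPM in PPFP and 9.14 ± 1.82 CPM in EV cells without pioglitazone (SD, n = 3; edgeR adjusted p = 0.00058). Fbln1, for fibulin 1, had a log2 fold change of -3.18 (adjusted p = 0.003) with pioglitazone, from 57 counts in EV cells and 5 in PPFP cells. Mfap5, for a microfibril-associated glycoprotein, went the other way, with 8 counts in the EV libraries and 1748 in the PPFP libraries without the drug, and 9 against 1987 with it. Its log2 fold changes were 7.92 (SE 0.26) and 7.95 (SE 0.22). Mfap5 passed the filter on low counts only through the PPFP libraries, so that it differed was fixed in advance.

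**Figure D4:**
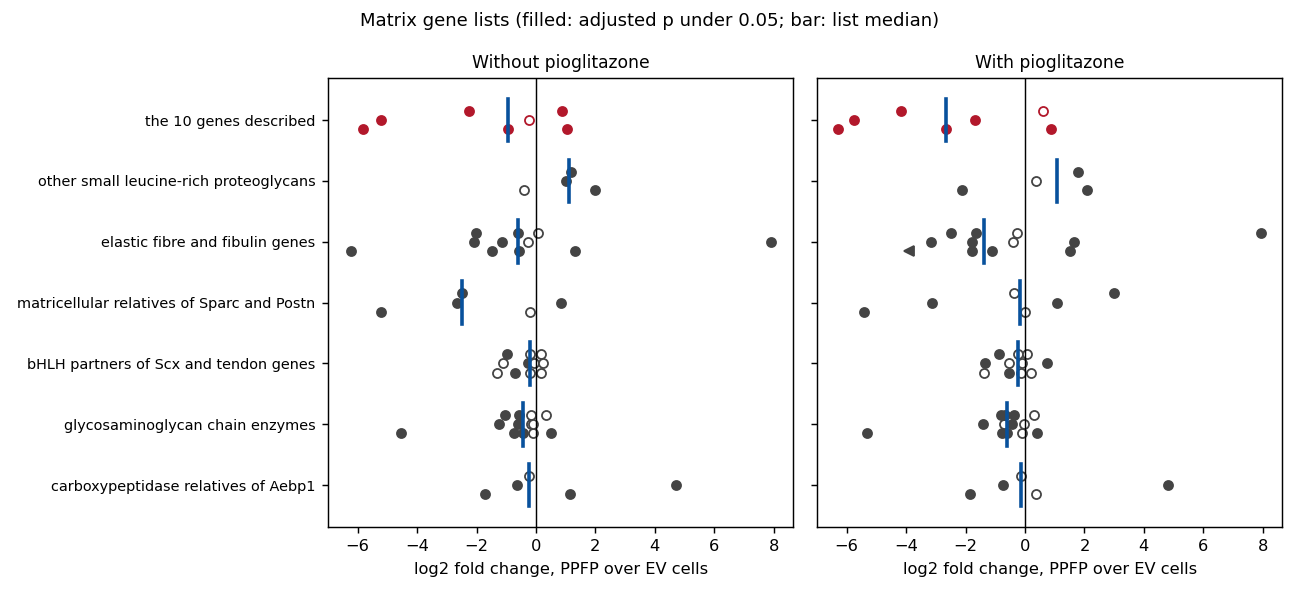
Log2 fold changes of PPFP over EV cells (x axis) for the described genes (red) and 6 related gene lists (black), without and with pioglitazone; each point is a tested gene, filled where the adjusted p was under 0.05, blue bars are list medians and the triangle is the bound for elastin, which had no read in PPFP cells with pioglitazone. The single gene near 8 in both panels is Mfap5 (7.92 and 7.95).

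Of 18 matricellular genes related to Sparc and Postn, 5 were tested without pioglitazone, with 3 lower and 1 higher (median log2 fold change -2.49), and 6 with it, with 2 lower and 2 higher (median -0.17). The 2 medians are over different genes, since Sparcl1 passed the filter on low counts only without pioglitazone and Spock2 and Wisp1 only with it. Ctgf, for connective tissue growth factor, was 95.3 ± 15.5 CPM in PPFP and 611 ± 98.1 CPM in EV cells without pioglitazone (SD, n = 3; edgeR adjusted p = 2.9e-05), and 70 ± 10.1 against 627 ± 154 CPM with it (adjusted p = 3.7e-05). Wisp2, of the same family, had 100 and 2 counts in EV and PPFP cells, a 43.8-fold ratio (95% exact interval 11.8 to 367), and 119 and 2 counts with pioglitazone, a 51.6-fold ratio (14 to 431). Sparcl1, the closest relative of Sparc, was lower without pioglitazone (log2 fold change -2.49, adjusted p = 0.0034), from 54 counts in EV and 8 in PPFP cells, and with the drug, where it was not tested, had 63 against 8 counts (6.83-fold, 95% exact interval 3.26 to 16.5). Wisp1 was higher with pioglitazone (3.01, adjusted p = 0.0038), from 8 and 57 counts, and without it, where it was not tested, had 7 against 31 counts (5.05-fold, 2.18 to 13.6).

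Of 18 bHLH partners of scleraxis and tendon genes, 11 were tested; 3 were lower and none higher without pioglitazone (median log2 fold change -0.21), and 3 lower and 1 higher with it (median -0.25). Id3, an inhibitor of bHLH factors, was the 1 that both passed and exceeded 2-fold, at 137 ± 1.71 CPM in PPFP against 355 ± 39.4 CPM in EV cells with pioglitazone (SD, n = 3; edgeR adjusted p = 3.7e-05). Of 20 enzymes that build and sulphate glycosaminoglycan chains, 13 were tested, with 7 lower and 1 higher without pioglitazone (median -0.44) and 8 lower and 1 higher with it (median -0.61).

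Chpf, for a chondroitin polymerizing factor, was 67.6 ± 1.54 CPM in PPFP and 163 ± 17.6 CPM in EV cells without pioglitazone (SD, n = 3; edgeR adjusted p = 3.5e-05) and 64.5 ± 0.642 against 175 ± 12.3 CPM with it (adjusted p = 1.4e-05). Csgalnact1, for an enzyme that starts chondroitin chains, had 169 counts in EV and 6 in PPFP cells without pioglitazone, a 24.7-fold ratio (95% exact interval 11.1 to 68.3), and 208 and 4 with it, a 45.1-fold ratio (17.4 to 167). Chst3, for a chondroitin sulphotransferase, had a log2 fold change of -1.04 (adjusted p = 0.0087) without the drug and -0.72 (SE 0.42, adjusted p = 0.19) with it, where the libraries overlapped.

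Of 7 carboxypeptidases related to Aebp1, 5 were tested, with 2 lower and 2 higher without pioglitazone (median log2 fold change -0.22) and 2 lower and 1 higher with it (median -0.15). Cpz was lower (-1.72, adjusted p = 0.0038, and -1.84, adjusted p = 0.0012, by edgeR). Cpxm2, a close relative of Aebp1 that lacks enzyme activity, was higher, with 7 counts in EV and 168 in PPFP cells without pioglitazone and 5 and 130 with it (adjusted p = 0.00034 and 6.7e-05). Cpm, for a membrane carboxypeptidase, was higher without the drug (1.15, adjusted p = 0.0095), had 0.36 with it (adjusted p = 0.22), and was lower within PPFP cells with the drug (-0.8, adjusted p = 0.0055).

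Markers of other cell types were examined beside these genes. Of the 10 fibroblast markers 3 were tested, with 1 lower and none higher without pioglitazone and 1 lower and 1 higher with it. Pdgfra, a receptor of fibroblasts, was the higher one (log2 fold change 0.46, adjusted p = 0.014 by edgeR). The lower one, Pdpn, for podoplanin, was at 4.35 ± 1 CPM in EV cells (SD, n = 3) and had no read in PPFP cells without pioglitazone, at least 34.4-fold lower. The smooth muscle and pericyte list summed to 39 to 54.7 and 32.7 to 49.9 CPM in the EV groups without and with pioglitazone and to 9.28 to 9.87 and 8.99 to 9.9 CPM in the PPFP groups. Of its 5 genes in the table, 4 were tested, and 1 was lower without pioglitazone and 2 with it. Most of that difference was Cnn1, for calponin 1, with 3367 counts in EV and 6 in PPFP cells without pioglitazone, while Rgs5, a pericyte marker, had no read. Des, for desmin, was lower with pioglitazone (log2 fold change -1.58, adjusted p = 0.0039). Myh11, the smooth muscle myosin gene, had mean levels of 7.06 and 6.81 CPM in the EV groups and 7.97 and 8.62 CPM in the PPFP groups and did not pass, nor did Tagln (-0.08 and -0.62).

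The lower level of Cnn1 went with that of Fmod, Fbln5 and Aebp1, and its part in their levels was not tested. The endothelial list summed to 0.215 to 1.52 CPM, with Cdh5 at 0, and the immune cell list to 0.54 to 1.53 CPM over all libraries. Of these, 1 gene each was tested, Vwf, higher without pioglitazone (log2 fold change 1.17, adjusted p = 0.038 by edgeR), and Cd68, higher in both comparisons (0.86, adjusted p = 0.048, and 1.18, adjusted p = 0.016). Of the 10 thyroid follicular markers, 5 were lower and 3 higher without pioglitazone and 6 lower and 3 higher with it. Foxe1, a thyroid transcription factor, was lower (-2.72, adjusted p = 4e-06, and -3.01, adjusted p = 1.3e-06), and Duox2, an enzyme that makes hydrogen peroxide for hormone synthesis, was higher (2.21, adjusted p = 9.8e-06, and 3.28, adjusted p = 5.5e-06), as was its maturation factor Duoxa2 (2.13 and 3.31).

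Among the EV libraries, replicate 1 was the highest of both EV groups for 5 of the 7 detected genes, Scx, Prelp, Fmod, Bgn and Sparc, whereas 12.7% of 10480 genes had that order, 27.9% were highest in replicate 2 and 33.5% in replicate 3.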

How the data were processed

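RNA-seq was performed by the authors on 12 libraries of PCCL3 cells, 3 independent experiments for each of 4 groups, with an unstranded kit. All libraries of an experiment shared sequencing lanes; the labels do not say that the replicate number marks the experiment. The deposited values are raw counts of reads per gene, with no normalization. Per the labels and the study's methods, reads were aligned to rn4 with TopHat2 2.0.11 and counted with HTSeq 0.6.1p1, with the strand setting not given in the sources used here. The ChIP-seq peaks, columns of p-values and fold enrichment included, were not used here, since no gene annotation of their build was at hand.

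The counts were tested for each comparison on its 6 libraries with edgeR 4.0.16 (filterByExpr, TMM factors, quasi-likelihood F test) in R 4.3.3, p-values were adjusted over all genes tested (Benjamini-Hochberg), and a call was an adjusted p under 0.05 with a fold change above 2. The difference between the lines' responses was fitted on 12 libraries. CPM are counts scaled to the TMM-adjusted library total. The standard error is the log2 fold change divided by the square root of F. Likeness used log2 CPM with a prior count of 2. p-values measure only the spread between these libraries.

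Members and lists were chosen with earlier results of these data known. Named were all 10 members, their neighbours in GRCr8, the 3 genes most like each member with a mean of at least 1 CPM, and in each list up to 3 called genes with the largest change. Pdgfra, Myh11, Tagln, Rgs5, the markers without reads and the endothelial and immune genes given beside them, Spock2, Pparg, Pax8 and the chosen pairs of members were named after their values were seen. Same-numbered libraries deviated together within a line (correlations 0.743, 0.465 and 0.436 in PPFP cells and 0.532, 0.729 and 0.774 in EV cells), so the number was taken to pair them there, though in PPFP cells replicates 2 and 3 also correlated across numbers (0.349 and 0.536). Across lines the correlations were -0.251, 0.317 and -0.322 without and -0.247, 0.238 and -0.38 with pioglitazone, so the block stands there as an alternative only. Alternatives were edgeR's exact test, DESeq2 1.42.0, RLE factors, library size alone, no filter or at least 10 counts in every library, all 12 libraries in 1 fit, the replicate number as a block and each library left out. The scripts were tested on simulated data. Promoters are from RefSeq (GRCr8).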

Additional observations from a re-analysis of the deposited data

Results flagged for a closer look

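The response to pioglitazone differed between the lines for 2 of the described genes in the fit of the difference itself over all 12 libraries. The log2 difference, PPFP cells minus EV cells, was -1.74 for Scx and -1.45 for Prelp. Since the genes were chosen with these values known, both are a description.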

How the results depend on the processing

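With at least 10 counts in every compared library, 983 genes in place of 1496 and 2 described genes in place of 4 were called between the lines without pioglitazone, and 2 in place of 5 with it, because fewer genes are tested and Fmod, Fbln5 and, with pioglitazone, Aebp1 fall under that filter. Under that filter the genes called in the elastic fibre list went from 7 to 3 without and from 10 to 5 with pioglitazone and in the matricellular list from 3 to 1 and from 4 to 2, and over all lists and other settings 21 counts moved by over 1.5 times and 155 did not. Fits with each library left out gave 1468 to 1662 and 1967 to 2241 genes without and with pioglitazone, 160 to 296 (244 in full) within PPFP cells, the lowest without replicate 3 of PPFP cells without pioglitazone, and 0 in EV cells. For the difference in response they gave 52 to 105 (97 in full), with 52 and 58 without replicates 3 and 2 of PPFP cells without pioglitazone, 59 without replicate 2 of those with it and 64 without replicate 1 of EV cells with it. The replicate block gave 269 genes for that difference, 322 within PPFP cells and, between the lines, where the numbers did not pair the libraries, 1466 and 2012 without and with pioglitazone, and among the described genes it brought the adjusted p of Bgn (-0.62) and Sparc (-0.13) within PPFP cells under 0.05, both below 2-fold, added the call of Aebp1 (-1.96) for that difference, and moved no other across the threshold. With each library left out, the log2 change with pioglitazone in EV cells, called for none of the genes, ran from -0.34 to 0.09 for Sparc and from -0.27 to 0.12 for Aebp1, and the difference in response from -0.23 to 0.2 for Sparc and from -1.27 to 0.04 for Fbln5, so these signs are not settled in these fits, which do not pair libraries. Paired by replicate number, Sparc in EV cells with the drug was at 0.922, 0.888 and 0.948 of its level without it. The same ratios for Aebp1 were 1.04, 0.882 and 0.891. Without replicate 2 or 3 of PPFP cells with pioglitazone the described genes kept their direction against EV cells, and the calls of Aebp1 within PPFP cells were the ones lost. Where no cause is named here, the cause was not tested. Other thresholds and distances for the peaks were not run, since the peaks were not used.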
